A study of Mus musculus with 18 samples.

Results

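The stretch chr2:98502421-98507483 of the NCBIM37 mouse genome spans 5063 bp and holds copies of satellite repeats. It was chosen for taking a far larger part of the bisulfite calls than its length would give. Its members here were the single cytosines of both strands with at least 100 calls in each of the 18 libraries, a depth at which a methylation level can be read cytosine by cytosine. There were 94 such cytosines among the 213 listed in the stretch in any library, and 498 in the whole genome. They held 99.5% of the calls of the stretch. The cytosine at 98506542, with 100 calls in its shallowest library, was the last one inside the minimum, and the cytosine at 98502656, with 88, was the first outside.

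Embryonic stem cells (ESCs, strain E14 in the labels) were sampled on days 1, 3, 6, 9 and 11 as control cells, labelled Wildtype, and as Dnmt1 KO cells, in which the methods describe removal of floxed Dnmt1 by a Cre recombinase switched on with tamoxifen. The methods call the floxed line C57BL/6, so the strain of the cells is not settled here. Whether the controls carried the floxed allele or received tamoxifen is not stated in the labels, so the loss of Dnmt1 and the treatment cannot be told apart. Each genotype had 2 libraries a day and 1 on day 6, and nothing in the labels says whether replicates came from separate cultures, so the spread between them may be technical. A library held 7190722 to 11158414 calls, and in the mitochondrial genome 0.228% to 0.467% of calls were methylated.

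Mouse chromosomes carry long tandem arrays at their centromeres. The minor satellite lies at the centromere itself and carries the CENP-B box, the site bound by the centromere protein CENP-B, which binds it poorly when its CpGs are methylated, while the major satellite fills the flanking pericentromeric heterochromatin. Both are heavily methylated at CpGs in most somatic cells and in ESCs grown in serum. DNMT1 copies methylation onto the new strand after replication, and DNMT3A and DNMT3B add methylation without a template.

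The member cytosines at the ends of the stretch lay in copies of a 234 bp repeat and the inner ones in copies of a 120 bp repeat. These repeats carry the features of the major and the minor satellite. Among the shallower cytosines between the blocks, 98503013 matched the 234 bp repeat and 98506670 neither repeat. A copy of each repeat is printed from the reference because every cytosine below is named by its place in it, counted from 1 at the left end of the sequence. The major unit lies at chr2:98506706-98506939 and was 96.6% identical to the copy that follows it, and the minor unit lies at chr2:98505097-98505216 and was 93.3% identical to the next. Both are read on the plus strand of the chromosome, 5′ to 3′, with each CpG in capitals.
Major satellite unit: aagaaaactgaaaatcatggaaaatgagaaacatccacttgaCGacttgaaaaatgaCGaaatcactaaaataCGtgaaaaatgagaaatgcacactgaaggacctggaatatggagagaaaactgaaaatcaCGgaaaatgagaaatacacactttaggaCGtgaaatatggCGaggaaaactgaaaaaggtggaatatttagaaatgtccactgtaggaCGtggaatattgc
Minor satellite unit: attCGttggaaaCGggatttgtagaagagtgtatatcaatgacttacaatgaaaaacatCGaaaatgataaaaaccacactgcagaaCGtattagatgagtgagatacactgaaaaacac
CENP-B box: attCGttggaaaCGgga

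The CENP-B box, searched on both strands as NTTCGNNNNANNCGGGN, occurred 6 times in the stretch, each time with the letters printed above. Only 0.112% of the 488306 autosomal windows of the same length held a match. The minor unit was set to begin at a box, so the CpGs of the box are those at unit positions 4 and 13. The printed major copy holds no CpG at position 116, where 3 other copies in the stretch do.

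The deep cytosines lay in 5 blocks. The left block, 98502421-98502614, held 14 major satellite cytosines in a copy turned over with respect to the printed unit. Minor satellite blocks followed at 98502713-98502962 (14 cytosines, turned over), 98505184-98505350 (10 cytosines, as printed) and 98506419-98506660 (8 cytosines, turned over). The right block, 98506748-98507483, held 48 major satellite cytosines as printed. In all, 62 cytosines belonged to the major and 32 to the minor satellite, 47 to each strand of the chromosome, and 45 CpGs had both of their cytosines deep. Because copies run both ways, strands are named by the unit below: the unit plus strand reads as printed, and the unit minus strand is its complement.

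The annotation places 2 predicted protein coding genes over the stretch, Gm10801 (ENSMUSG00000075015.2, plus strand, 98502394-98504240) and Gm10800 (ENSMUSG00000075014.1, minus strand, 98506704-98507458). Of the 94 cytosines, 38 lay in coding exons of Gm10800 and 6 in its intron, 14 in coding exons and 14 in an intron of Gm10801, and 22 between the genes or beyond them. The coding exons with deep cytosines are thus copies of the major satellite.

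In control cells the stretch took 3.66% to 4.93% of the autosomal calls of a library, although its 81 reference CpGs are 0.000398% of the autosomal CpGs. Averaged over the 9 control libraries that is 11437.5 times the share its CpGs would give. The stretch was chosen by its share of calls, so this excess was fixed by the choice. The comparison of the share between genotypes is given as description. In Dnmt1 KO cells the share ran from 3.95% on day 6 to 6.46% in 1 library of day 9. The mean difference over days was 0.317 percentage points (n = 9 and 9), and the genotypes overlapped on days 1, 9 and 11. Leaving out 1 library gave 0.136 (without Dnmt1 KO day 9 replicate 2) to 0.499 points (without Dnmt1 KO day 9 replicate 1). Reads of near-identical copies that the reference lacks can be placed here, so a level is a mean over an unknown number of copies. A copy with T in place of the C is read as unmethylated and cannot be told apart from an unmethylated cytosine.

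Methylation of the stretch, taken as the percent of all its calls that were methylated, fell in every Dnmt1 KO library. The control libraries stood at 84.1% and 82.6% on day 1, 83.2% and 83.5% on day 3, 85.5% on day 6, 84.7% and 83.0% on day 9 and 82.7% and 82.8% on day 11. The Dnmt1 KO libraries stood at 78.1% and 78.4% on day 1, 42.9% and 44.6% on day 3, 38.2% on day 6, 36.1% and 36.4% on day 9 and 34.6% and 35.6% on day 11. All 9 Dnmt1 KO libraries lay below every control library of their day, and most of the fall came between days 1 and 3. The mean difference over days was -37.5 percentage points (exact permutation within days, two-sided, p = 0.00077, the smallest the 2592 arrangements can give; 0.0014 after Benjamini-Hochberg adjustment over 7 tests).

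The rest of the autosomes started lower and ended lower than the stretch. It stood at 70.8% to 78.7% in control libraries, 69.5% and 69.8% in Dnmt1 KO on day 1, 32.8% and 34.0% on day 3, and 23.6% to 24.8% from day 6 to day 11. From day 6 on, the stretch went from 38.2% to a mean of 36.2% ± 0.25 (SD, n = 2) and then 35.1% ± 0.68 (SD, n = 2), while the rest of the autosomes was at 23.6%, 24.4% ± 0.61 and 23.9% ± 0.39 on the same days.

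**Figure D1:**
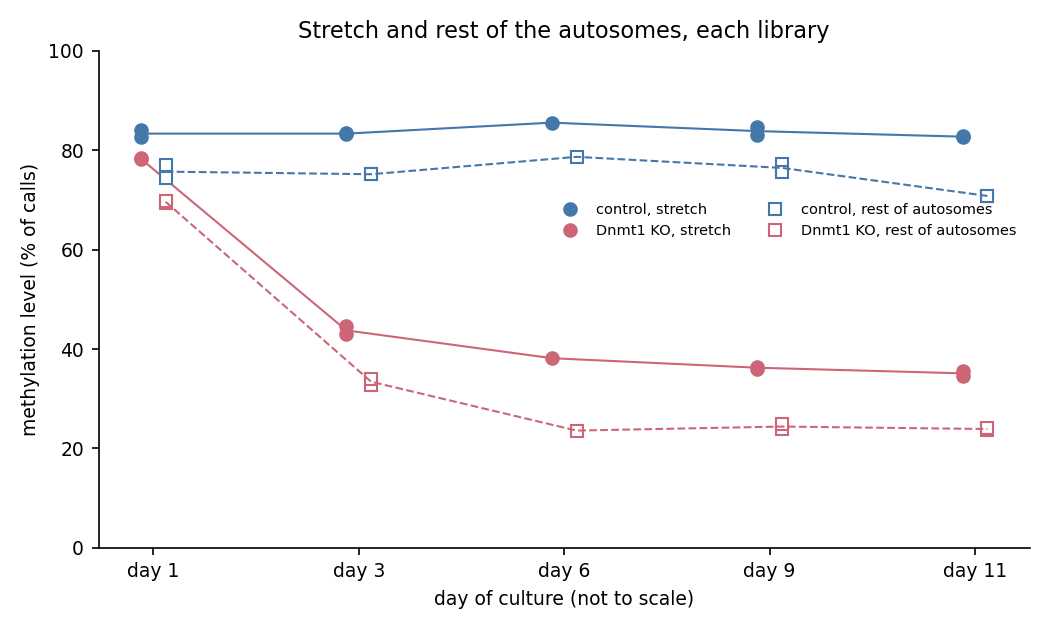
Methylation level (percent of calls) of each library by day, with filled circles for the stretch and open squares for the rest of the autosomes, control in blue and Dnmt1 KO in red; lines join the means of each day. The control libraries of the stretch sit between 82.6% and 85.5%, and the Dnmt1 KO libraries drop to 42.9% and 44.6% on day 3 and to 34.6% and 35.6% on day 11.

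Relative to the rest of the autosomes the stretch, with all its calls pooled, kept more of its methylation. Pooling gives most weight to the right major satellite block, with median calls a cytosine of 12694 (plus strand) and 3066.5 (minus strand). The other blocks had 266.5 to 2894. The mean level of the minor satellite cytosines in Dnmt1 KO was 32.5%, 32.5% and 31.8% of control on days 6, 9 and 11. In the rest of the autosomes it was 30.0%, 31.9% and 33.8% of control, so the minor satellite kept about as much. The log2 ratio of stretch to rest was 0.12 to 0.22 in control libraries, 0.17 and 0.17 in Dnmt1 KO on day 1, 0.39 and 0.39 on day 3, 0.69 on day 6, 0.59 and 0.55 on day 9 and 0.55 and 0.56 on day 11. Every Dnmt1 KO library lay above the control libraries of its day, with a mean difference of 0.32 on the log2 scale (exact permutation, p = 0.00077, adjusted p = 0.0014, n = 9 and 9). In percentage points the contrast was smaller and did not run one way. The stretch exceeded the rest by 6.88 to 11.95 points in control and 8.60 to 14.6 in Dnmt1 KO, higher in Dnmt1 KO on days 1 to 9 and lower on day 11, and the mean difference of 2.91 points (exact permutation, p = 0.011, adjusted p = 0.013) depended on the strand. It was 0.368 points on the plus strand alone (exact permutation, p = 0.86) and 8.51 on the minus strand alone (p = 0.00077), and with equal weight for each deep cytosine 4.61 (p = 0.00077). Without the day 6 libraries, 1 of each genotype, it was 1.72 points over both strands (exact permutation, p = 0.022).

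Single cytosines were compared with a quasi-binomial model of their methylated and unmethylated calls, with the spread moderated by limma over all 498 deep cytosines of the genome and adjusted p-values (Benjamini-Hochberg) over the same 498. A cytosine was called at an adjusted p under 0.05 where its level also moved by 10 points or more. On day 1, 0 of the 94 cytosines were called between Dnmt1 KO and control, against 2.01% of all those tested. Their differences ran from -7.66 to 1.85 points with a median of -4.39. The median was -3.48 over all tested, mitochondrial cytosines included, and -4.43 in the deep nuclear cytosines outside the stretch. Without the minimum difference 57 were lower and none higher, 70 had an unadjusted p under 0.05, and limma on the arcsine scale also called 0.

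By day 3 nearly every cytosine of the stretch had lost methylation. Called lower were 91 of 94 on day 3 (74.5% of all tested), 92 on day 6 (74.7%), 94 on day 9 (75.3%) and 91 on day 11 (74.5%), and none was called higher. The mitochondrial genome gave 120 of the 498 tested cytosines and 0 calls, and of the 284 other deep nuclear cytosines 280 were called on day 3. The median difference in the stretch was -39.4 points on day 3 and -48.5 on day 11, against -30.7 and -38.2 over all tested and -38.1 and -46.0 in the other nuclear cytosines.

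The steps between days in Dnmt1 KO cells placed the losses. From day 1 to day 3, 91 of 94 were called lower (74.5% of all tested). The median was -34.9 points, against -27.6 over all tested and -33.7 in the other nuclear cytosines. From day 3 to day 6, 21 were called lower (10.2%). The median was -5.59 points, against -4.36 over all tested and -5.61 in the other nuclear cytosines. From day 6 to day 9 and from day 9 to day 11 none was called (0.00% of all tested in both steps), by the quasi-binomial model or by limma on the arcsine scale, with 10 and 13 at an unadjusted p under 0.05. The day 6 group is 1 library, assumed to vary like the others.

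With the minimum difference of 10 points, the calls after day 3 lay mostly in the minor satellite. Without that minimum 66 of the 94 were lower from day 3 to day 6. That is more than the 32 minor satellite cytosines, so major satellite cytosines also fell, by less than the minimum. With the minimum, 30 of the 284 other deep nuclear cytosines were called in this step, and 277 of the 284 were major satellite. Of the 21 called lower from day 3 to day 6, 19 were among the 32 minor satellite cytosines and 2 among the 62 major. All 10 cytosines of the first CpG of the CENP-B box were among them, with differences of -11.8 to -19.8 points, and 5 of the 10 of the second CpG. The first CpG is unit position 4, which also has copies outside any box. All 7 of its cytosines on the unit plus strand and all 6 on the unit minus strand were called, those outside a box included. Without replicate 2 of Dnmt1 KO day 3, 14 of the 94 were called.

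In control cells no step between days gave a called cytosine in the stretch (0.00% of all tested in each). At an unadjusted p under 0.05 there were 4 from day 1 to day 3, 36 from day 3 to the lone library of day 6, 16 from day 6 to day 9 and 14 from day 9 to day 11, and limma on the arcsine scale called 0 in each.

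Levels in control cells were nearly even over most of the stretch. Of the 94 cytosines, 73 had a mean control level from 80% to 90%, and the major satellite cytosines ran from 76.7% to 92.8% with a median of 84.2%. The highest was the unit plus strand cytosine of position 43 at 98506748, with 92.8% ± 0.73 (SD, n = 9) in control and 41.96% ± 1.499 (SD, n = 5) in Dnmt1 KO of days 6 to 11. Next came 98502952 (minor position 14, 91.8%), 98502452 and 98506982 (major position 43, 90.9% and 89.6%) and 98502437 (major position 58, 89.4%).

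Only 5 cytosines were under 50% in control, all of the minor satellite. The cytosine at 98502786, at unit position 60 on the plus strand of the chromosome, was at 12.8% to 19.3% in the control libraries, with a median of 16.4%. The cytosine of the opposite strand of the same reference CpG, 98502787, was at 81.8% ± 2.66 (SD, n = 9). Depth fell at 98502787 only. In control day 1 replicate 1 it had 354 calls, against 1909 and 2033 at the minus strand cytosines 98502759 and 98502834. The plus strand cytosine 98502786 had 1032, against 1042 and 1153 at 98502758 and 98502833. Whether both strands were read from the same copies was not tested, so the pair need not show the 2 strands of 1 CpG. The 4 cytosines of unit position 88 were low on both strands, at 18.7% (98502758) and 17.97% (98502759) in the left copy and 30.0% (98505184) and 27.3% (98505185) in the inner one. In Dnmt1 KO of days 6 to 11 these 5 cytosines lay between 6.46% and 15.7%. Those not called lower on day 3, 6 or 11 were 98502758, 98502759, 98502786 and 98505185, all among these 5, with differences of -5.76 to -9.42 points that had adjusted p-values of 0.0019 or less in the quasi-binomial model.

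The sequences around both cytosines of the position 60 CpG, 98502786 (low) and 98502787 (high), and around 98502758, as an example of position 88, are shown with 10 bases on either side of the CpG in capitals, each on the strand of its cytosine.
98502786: ttatcattttCGatgtttttca
98502787: tgaaaaacatCGaaaatgataa
98502758: tcatctaataCGttctgcagtg

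**Figure D2:**
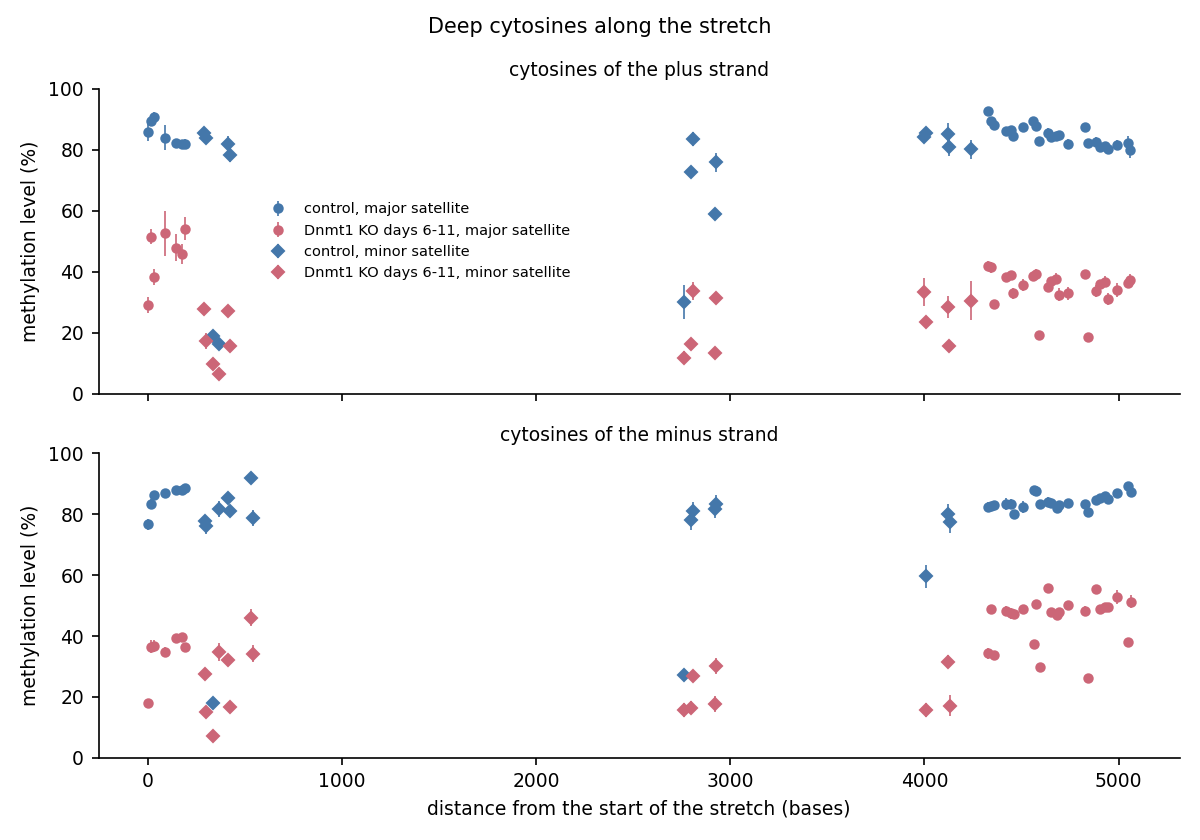
Mean methylation level (%) of each deep cytosine against its distance in bases from the start of the stretch, for the plus strand (top) and the minus strand (bottom); circles are major and diamonds minor satellite, blue is control (bars are the SD over 9 libraries) and red Dnmt1 KO of days 6 to 11 (SD over 5 libraries). Control levels lie near 84.2% over the major satellite ends, while Dnmt1 KO levels run from 6.46% to 55.9%.

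From day 3 on, levels in Dnmt1 KO cells were less even among the cytosines that were high in control. Over the 89 cytosines with at least 50% in control, the SD over cytosines within a library was 4.69 to 5.83 points in control, 4.69 and 4.61 in Dnmt1 KO on day 1, and 8.89 to 11.8 from day 3. Over the 62 major satellite cytosines it was 2.72 to 3.86 in control, 3.28 and 3.47 in Dnmt1 KO on day 1, and 8.17 to 9.45 from day 3. Over all 94, the low cytosines included, the order turned round, with 14.03 to 15.2 points in control and 11.4 to 13.9 in Dnmt1 KO. The 89 were picked by their control level, a choice that by itself narrows the spread in control. Late levels (Dnmt1 KO of days 6 to 11) ran from 18.05% to 55.9% in the major satellite and from 6.46% to 46.0% in the minor. Control and late level had a Pearson correlation of 0.18 over the 62 major satellite cytosines. It was 0.69 over the 32 minor satellite cytosines, which include the 5 under 50% in control, and it was not computed without those 5. Over the 89 with at least 50% in control, which mix both satellites, it was 0.52. Cytosines of the same satellite share libraries and near-identical sequence.

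The major satellite kept more than the minor. The mean over major satellite cytosines was 83.4% to 86.6% in control libraries, 46.2% and 48.2% in Dnmt1 KO on day 3 and a mean of 39.4% ± 0.85 (SD, n = 2) on day 11. The mean over minor satellite cytosines was 68.6% to 73.3% in control, 33.7% and 34.0% on day 3 and 21.8% ± 0.22 (SD, n = 2) on day 11. The median cytosine kept 44.6% of its control level in the major and 34.5% in the minor satellite, and the rest of the autosomes kept 32.1%. In late Dnmt1 KO cells 59 of the 62 major and 15 of the 32 minor satellite cytosines lay above the 24.0% ± 0.51 (SD, n = 5) of the rest of the autosomes.

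Within the major satellite the late level followed the place in the unit and its strand. It was highest at position 116 on the unit minus strand, where 3 copies had 54.2% to 55.9%, and the 3 copies of the unit plus strand of the same CpG had 33.7% to 36.5%. In control the same 6 cytosines were at 82.0% to 84.5% on the unit minus and 82.7% to 88.4% on the unit plus strand.

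The pair of cytosines at 98507055 and 98507056 in Gm10800 shows this library by library. The unit minus strand cytosine, 98507056, was at 81.7% to 86.4% in the 9 control libraries, with a mean of 84.1%, 81.8% and 83.6% in Dnmt1 KO on day 1, 60.1% and 61.3% on day 3, 56.9% on day 6, 57.4% and 54.6% on day 9 and 55.0% and 55.7% on day 11. The unit plus strand cytosine, 98507055, was at 83.4% to 88.1% in control, 78.6% and 78.7% in Dnmt1 KO on day 1, 38.5% and 40.4% on day 3, 36.9% on day 6, 35.0% and 36.2% on day 9 and 33.0% and 33.4% on day 11. In control the ranges of the 2 strands overlapped, and within a library the unit plus strand was higher by 1.53 ± 0.61 points (SD, n = 9). In every Dnmt1 KO library the unit minus strand was the higher. Their sequences, each 5′ to 3′ on its own strand with the CpG in capitals, were these.
98507056: tcaggtttctCGccatattcca
98507055: tggaatatggCGagaaacctga

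At the other major positions the unit minus strand also had the higher late level, except at position 43. It had 50.1% against 38.7% on the unit plus strand at position 58, 47.7% against 37.7% at position 134 and 47.9% against 38.1% at position 162. At position 174 it had 48.3% against 32.2%, and at position 222, 51.2% against 34.3%. Position 74 was low on both strands, with 29.8% and 21.3%, and at position 43 the means were 37.0% and 38.3%. Copies of position 43 went opposite ways: at 98506748 the unit plus strand was higher by 7.58 ± 0.94 points (SD, n = 5), and at 98507467 the unit minus strand by 1.93 ± 0.48 (SD, n = 5), each in 5 of 5 late libraries. In control the same strands were already the higher ones, by 10.5 ± 1.48 and 6.94 ± 2.57 points (SD, n = 9). Cytosines with the same 4 bases around the CpG differed, since ACGT was read on both strands of positions 74, 162 and 222, where late levels went from 21.3% to 51.2%.

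The fall at position 74 was among the largest of the stretch. The cytosine 98507264 in Gm10800, with a median of 18357 calls, was at 80.5% to 84.5% in control libraries and at 74.2% and 75.1% in Dnmt1 KO on day 1, 27.4% and 29.4% on day 3, 19.3% on day 6, 18.3% and 18.8% on day 9 and 17.9% and 18.4% on day 11. Averaged over days its difference was -50.6 points, exceeded only by the -51.5 points of 98502722 in a CENP-B box. The cytosine 98506550, in another box, also had -50.6 points.

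**Figure D3:**
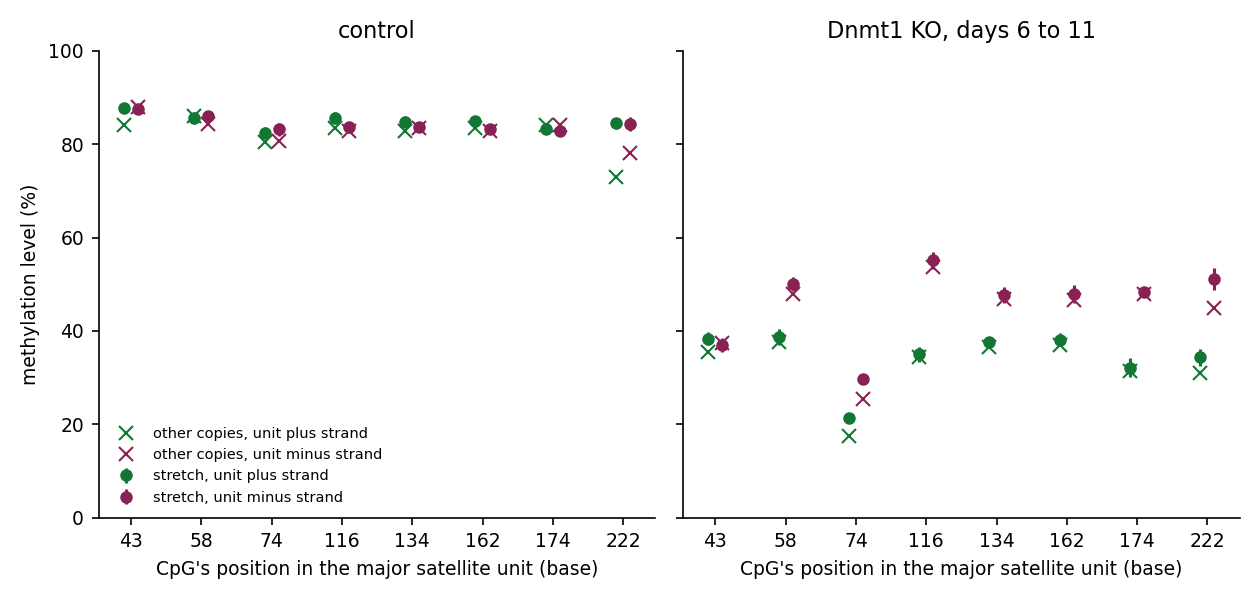
Mean methylation level (%) at each CpG position of the major satellite unit in control (left) and in Dnmt1 KO of days 6 to 11 (right), green for the unit plus and purple for the unit minus strand; circles are means over the copies in the stretch with the SD over 9 or 5 libraries, and crosses are means over copies elsewhere in the nuclear genome. In control all stretch values lie between 82.5% and 87.7%, and in Dnmt1 KO they spread from 21.3% (position 74, unit plus) to 55.1% (position 116, unit minus).

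The copies of the left block are turned over, so the strand of the unit and the strand of the chromosome can be held apart. In the left block the plus strand of the chromosome had the higher mean late level, 45.6% against 34.5%, and in the right block the minus strand, 45.7% against 34.7%. The unit minus strand was higher in 29 of the 31 major satellite CpGs with both cytosines deep, by a median of 11.12 points, and in 12 of 31 in control, with a median of -1.53 points. Calls were more numerous on the unit plus strand (median 8204 a cytosine, against 2334.5 on the unit minus strand), and the part of depth in the strand difference was not tested.

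Library by library, the unit minus strand exceeded the unit plus strand over the 31 CpGs by -1.23 to -0.12 points in control. In Dnmt1 KO the difference was 0.987 and 1.77 points on day 1, 9.67 and 10.1 on day 3, 11.14 on day 6, 9.93 and 10.3 on day 9 and 11.3 and 12.2 on day 11. The genotypes did not overlap on any day. In the 14 CpGs of the minor satellite the mean of the same difference was -0.746 to 2.12 points in control and -3.23 to -0.528 in Dnmt1 KO. The CpG at 98502786 weighs heavily in these means, with -65.6 points in control and -28.3 in late Dnmt1 KO cells. The median over the 14 CpGs was 4.40 points in control and -0.345 in late Dnmt1 KO cells. The unit minus strand was higher in 9 of them in control and in 7 in late Dnmt1 KO cells. Read on the strands of the chromosome over all 45 CpGs, plus minus minus, the mean was -1.31 to -0.32 points in control and -5.34 to -1.51 in Dnmt1 KO.

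**Figure D4:**
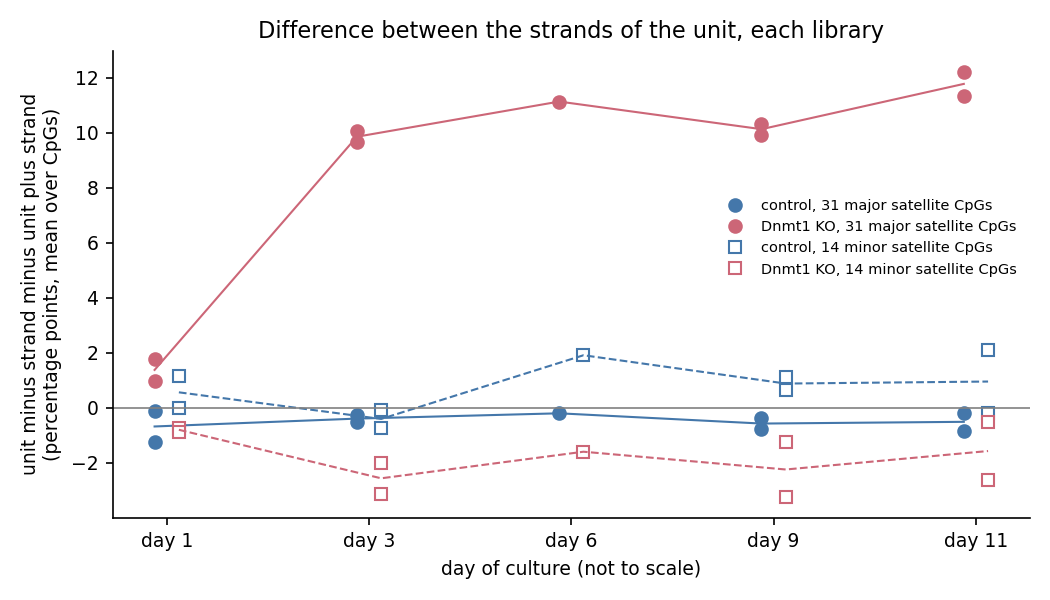
Unit minus strand level minus unit plus strand level in percentage points, averaged over 31 major satellite CpGs (filled circles) and 14 minor satellite CpGs (open squares), for each control (blue) and Dnmt1 KO (red) library by day; lines join the means of each day. The major satellite rises to 9.67 points or more from day 3 in Dnmt1 KO and stays between -1.23 and -0.12 in control. The minor satellite means include the CpG at 98502786, at -65.6 points in control.

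In control the CpGs with the largest strand difference were all of the minor satellite. They were the CpG at 98502786 above, with -65.6 points (plus strand of the chromosome minus minus strand), the CpG at 98506429, with 26.0 points, and the CpG at 98505340, with -22.5 points. The CpG at 98502786 had the uneven depth given above. The last 2 lie at unit position 4, 98505340 in a CENP-B box and 98506429 outside any, and in both the lower cytosine was on the unit plus strand, at 59.7% and 59.1%. In late Dnmt1 KO cells their differences were 7.82 and -4.18 points.

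The 2 CpGs of the CENP-B box parted after day 1. Over the 10 deep cytosines of the first CpG, in 5 boxes, the mean level was 74.3% to 79.95% in control libraries, 73.4% and 73.8% in Dnmt1 KO on day 1, 31.7% and 32.5% on day 3, 16.9% on day 6, 15.9% and 17.3% on day 9 and 14.9% and 15.5% on day 11. Over the 10 of the second CpG it was 79.0% to 85.3% in control, 78.3% and 78.4% on day 1, 39.8% and 41.3% on day 3, 31.3% on day 6, 29.6% and 30.2% on day 9 and 28.3% and 29.0% on day 11. The gap was 4.05 to 6.89 points in control, 8.08 and 8.80 on day 3 and 12.97 to 14.4 from day 6 on.

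In percentage points, copies of the box lay closer together in late Dnmt1 KO cells than in control. The first CpG ran in control from 59.1% (98505340) to 83.8% (98502722) over its 10 cytosines, and the second from 75.9% to 85.6%. Next lowest at the first CpG after 98505340 was 98505220, at 72.6%. Late levels were also lower, and the spread relative to the level was not compared. Late levels of the first CpG were 13.4% to 17.6% over its 10 cytosines and those of the second CpG 26.8% to 33.7%, with no overlap, although the boxes lie in 3 blocks and in both orientations. The first CpG kept 20.9% of its control level and the second 36.2%. The cytosine that lost most, 98502722 on the plus strand, is of a first CpG and was at 80.7% to 87.3% in control, 74.9% and 79.6% in Dnmt1 KO on day 1, 33.4% and 33.7% on day 3, 17.8% on day 6, 13.5% and 18.8% on day 9 and 16.3% and 20.3% on day 11. Median calls at the 20 box cytosines were 246.5 to 2180.

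**Figure D5:**
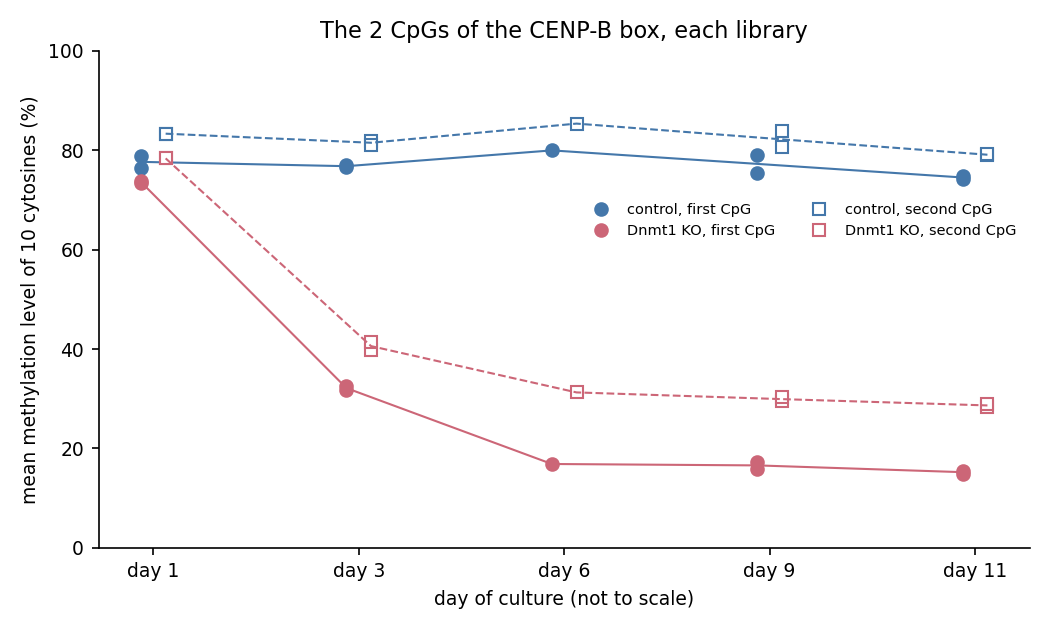
Mean methylation level (%) of the 10 deep cytosines of the first CpG (filled circles) and the 10 of the second CpG (open squares) of the CENP-B box in each control (blue) and Dnmt1 KO (red) library by day; lines join the means of each day. The CpGs lie 4.05 to 6.89 points apart in control and 12.97 to 14.4 points apart in Dnmt1 KO from day 6 on.

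The same places in the major satellite unit were read outside the stretch, mostly at chr9:3000032-3035260. Of the 284 other deep nuclear cytosines 277 were major satellite, and all 16 combinations of unit position and strand had copies in both. Late Dnmt1 KO levels of the 16 had a Pearson correlation of 0.98 between the stretch and the other copies, which share the libraries and near-identical sequence, and the largest difference was 6.18 points, at position 222 on the unit minus strand, where there was 1 other copy. At position 116 the other copies had 53.6% on the unit minus and 34.3% on the unit plus strand. Depth was lower there, with medians of 337 and 523.5 calls a cytosine.

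Set against those cytosines as a whole, the deep cytosines of the stretch were lower by 1.82 to 2.86 points in control and by 1.68 to 4.40 points in Dnmt1 KO. With major satellite cytosines matched by unit position and strand, a comparison chosen after the data were seen, the stretch was instead higher, by 1.58 to 2.49 points in control and by 1.32 to 2.44 in Dnmt1 KO, and the genotypes overlapped.

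Depth differed widely between cytosines. The deepest, 98507306, at position 116 on the unit plus strand, had a median of 22686.5 calls and late levels of 33.7% ± 1.99 (SD, n = 5). The shallowest, 98502507, at position 222 on the unit minus strand, had a median of 152.5 calls and late levels of 52.6% ± 7.33 (SD, n = 5). These SDs also hold the change between days 6 and 11. Calls from amplified copies of a molecule are not independent.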

How the data were processed

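Whole-genome bisulfite sequencing was analysed in 18 mouse ESC libraries. According to their methods the authors trimmed read pairs, aligned them with Bismark to NCBIM37, removed duplicates and extracted CpG calls; the processing notes of the submitters give Bismark 0.12.3, another version than the methods. The deposited tables held counts of methylated and unmethylated calls for each cytosine and a deposited percent, and only the counts were used, without normalization. The methods give Bismark's default settings and, for transposable elements, only reads with a unique placement. A level here therefore rests on reads whose best placement lay in the stretch, including any from near-identical copies that the reference lacks. The study's own major satellite levels came from all reads aligned to a consensus of that satellite, another measure than the one here.

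The members, units and boxes were chosen with earlier results of these data known. Named cytosines were those with the 5 highest and 5 lowest control and late levels, the 3 largest and smallest losses, the 3 largest control strand differences, and the deepest and shallowest. The major unit came from the reference by self-identity. The length of the minor unit was the smallest spacing of CENP-B boxes on the plus strand, and its copy was set to begin at a box. A cytosine was given the unit with at least 70% identity over 42 bases and a lead of 10%. Library values were tested by exact permutation within days in Python 3.11.15 (scipy 1.17.1), with adjustment over 7 tests. Of these, 3 scores over the members and the share of calls are given without p. Cytosines were tested in R 4.3.3 with limma 3.58.1, all 18 libraries sharing the spread. Tests were checked on simulated data. Replicate block, left-out libraries, other depth minima, strands and scales were tried as alternatives. Deletion of Dnmt1 was not checked here.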

Additional observations from a re-analysis of the deposited data

Results flagged for a closer look

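Where all Dnmt1 KO libraries of a day lay on one side of the control libraries and those of another day on the other side, the result is listed here, and none of these differences between days was tested. The cytosine 98505340 on the plus strand, in a CENP-B box, was 1.31 percentage points higher in Dnmt1 KO on day 1 and lower on the other 4 days. The stretch exceeded the rest of the autosomes by less in Dnmt1 KO than in control on day 11 only (-0.722 points) and by more on the other 4 days. On day 11 the rest of the autosomes was at 70.8% in both control libraries, lower than in any control library of another day. The deep cytosines of the stretch against the other deep nuclear cytosines were 0.282 points higher in Dnmt1 KO on day 1 and lower on the other 4 days. The share of autosomal calls in the stretch was 0.638 points higher in Dnmt1 KO on day 3 and lower on day 6, where each genotype had 1 library. Groups of 1 or 2 libraries are too small to look for a library that stands apart from its group.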

How the results depend on the processing

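Of 269 other settings, 263 kept the direction and the side of the threshold of their result, or a count within 1.5 times. The excess of the stretch over the rest of the autosomes went from 2.91 to 0.368 points on the plus strand only, 8.51 on the minus strand only and 4.61 with equal weight for each deep cytosine. On day 1, 1 cytosine was called with at least 50 calls, 57 without a minimum difference, and 0 to 1 when a library was left out; from day 3 to day 6 in Dnmt1 KO, 66 were called without a minimum difference and 14 to 22 when a library was left out. Of 6 settings chosen after the data were seen, the difference from other deep nuclear cytosines came to -0.0463 points at matched unit positions, and the genotype difference in spread over cytosines turned from -2.26 to 4.31 points without cytosines under 50% in control and to 4.60 in the major satellite. Leaving out single libraries gave -37.6 to -35.0 points for the methylation of the stretch, 1.72 to 3.01 for its excess over the rest, 0.136 to 0.499 for its share of calls and 0.26 to 0.33 for the log2 ratio. With the replicate block, the stretch differed by -36.3 points between genotypes (exact permutation, p = 0.0039, the smallest it can give). With it, 0, 91, 92, 94 and 91 cytosines were called on days 1, 3, 6, 9 and 11, the same counts as without it. Deviations of same-numbered libraries had correlations over cytosines of -0.16 to 0.099. A shift shared by a whole library cannot show in these correlations, so whether replicate numbers pair the samples is not settled here. Calls against the lone libraries of day 6 could not be refitted without them. The causes were not tested. Median calls a cytosine were 554.5 and 491 on the unit plus and minus strands of the minor satellite, the shallower of the units.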
